A study of Mus musculus with 39 samples.

Results

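The change in total CpG methylation when wild-type (WT) mouse embryonic stem cells (mESC) left the naive state and were treated with retinoic acid (RA) is described here over 330387 single CpGs. It rests on 10 of the 39 libraries of the series, 5 from naive and 5 from RA-treated WT cells, and the CpGs are all those with a value in both WT groups. For each CpG the naive value was subtracted from the RA value. The result was then read by starting level, by the number of measured CpGs in the surrounding 200 bp tile and by position in the genome.

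Both groups carry WT p53 and come from mESC derived from E2.5 morulas, the offspring of p53 heterozygous mice of strain 129s-Trp53tm2Tyj/J. The naive cells were kept in 2i and LIF, and lines were established on irradiated MEF feeders. For the RA group the feeders were removed on gelatin, the cells spent 16 hours in differentiation medium, and 1 uM RA was then given and renewed daily for 4 days. The loss of feeders, the change of medium, the time in culture and RA itself therefore go together and cannot be told apart. Whether feeders were also removed from the naive cultures before DNA was taken is not stated. The labels do not give the number of lines or clones, their sex, or whether libraries of a group came from separate cultures, and no expression was measured with which to check the cell state.

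The assay, reduced representation bisulfite sequencing (RRBS), reads CpGs in fragments cut by the enzyme MspI and so samples CpG-rich sequence. It does not separate 5-methylcytosine from 5-hydroxymethylcytosine, and total methylation means both. DNA methylation of CpGs is set on unmethylated DNA by the de novo enzymes Dnmt3a and Dnmt3b, copied after replication by Dnmt1 with its partner Uhrf1, and removed by dilution or through oxidation by Tet enzymes. The inhibitors of 2i medium hold mESC in a state of low genome-wide methylation, and differentiation brings methylation back over most of the genome. CpG-dense stretches, among them the CpG islands at many gene starts, are the main class of sequence that stays unmethylated in most tissues.

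The authors deposited 1 value per CpG and group, as a whole percent. No value of a single library and no read depth was used, so the values carry no SD between libraries and no n. Whether any difference exceeds the spread between libraries could not be tested, and no test was made. Where a spread is given it is that over CpGs or chromosomes, which describes the genome within the pooled groups. Positions are on mouse genome build mm9, and no gene was assigned to them.

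After RA, total methylation was higher at 40.5% of CpGs, lower at 11.7% and equal at 47.8%. Nearly all of the equal ones, 46.4% of all CpGs, were listed at 0 in both states. The change was thus lopsided: its 10th percentile over CpGs was -1 point, its median 0 and its 90th percentile 27 points, around a mean of 6.48 percentage points. Counting each 200 bp tile once, 87392 of 120722 tiles were higher and 18272 lower, and the mean was 12.5 points. Over CpGs at neither 0 nor 100 in either state it was 18.1 points. The largest gain of a CpG was 89 points and the largest loss -49 points. Gains of at least 10 points were found at 23.8% of CpGs and losses of that size at 0.802%. At 25 points the shares were 11.7% and 0.066%, and at 50 points 1.08% and 0%. A gain of at least 25 points is called a large gain below.

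The naive state held few highly methylated CpGs, and CpGs of intermediate level were often in that range in the RA-treated group. CpGs at 60 to 79% made up 3.24% of all CpGs in naive and 9.63% in RA-treated cells, and those at 80 to 100% made up 0.525% and 3.32%. The classes between 5 and 39% became smaller. They went from 9.30% to 7.73% of CpGs at 5 to 19% and from 8.41% to 5.74% at 20 to 39%. The class of 1 to 4% went from 13.8% to 10.4%, and 55.3% of its naive CpGs were listed at 0 after RA. The share listed at 0 went from 57.8% to 55.2%. Of the CpGs at 20 to 39% in naive cells, 43.1% were at 40 to 59% after RA, 36.5% at 60 to 79% and 4.72% at 80 to 100%. Of those at 40 to 59%, 58.1% moved to 60 to 79% and 17.4% to 80 to 100%. CpGs at 60 to 79% after RA had come mostly from naive levels of 40 to 59%, with 41.8% of them, and of 20 to 39%, with 31.8%.

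The size of the gain depended strongly on the starting level and was largest in the middle of the scale. By the level of naive WT cells themselves, the mean change was 1.15 points for the 190941 CpGs at 0 and 2.51 points at 1 to 4%. In the class of 1 to 4% the median change was -1 point, and 58.0% of the CpGs were lower after RA. The mean change was 18.6 points at 5 to 19% and 25.9 points at 20 to 39%. Above that it was 18.8 points at 40 to 59% and 8.55 points at 60 to 79%. Large gains made up 55.0% of the CpGs at 20 to 39%, against 11.7% of all CpGs. The 1734 CpGs at 80 to 100% changed by -3.96 points, from 85.8% to 81.9%, with 57.7% of them lower after RA. In terms of the total, CpGs at 5 to 59% made most of the net gain, with 26.7% of it from 5 to 19%, 33.6% from 20 to 39% and 20.1% from 40 to 59%. CpGs at 0 were 57.8% of all CpGs and gave 10.3% of the net gain.

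The naive WT value enters both the class and the difference, and it sets how far a CpG can go up or down. Classes were therefore also formed from naive p53-null mESC, a separate group of libraries whose values do not enter the difference. By that level the WT change was 0.569 points at 0, 2.55 at 1 to 4%, 14.8 at 5 to 19% and 25.4 at 20 to 39%. Above that it was 23.5 points at 40 to 59%, 18.0 at 60 to 79% and 10.9 at 80 to 100%, where WT cells went from a mean of 66.1% to 77.0%. Every one of these 7 classes was higher after RA on 20 of 20 chromosomes. The class of 80 to 100% by naive WT level, in contrast, was lower on 20 of 20 chromosomes. Set against the room left to 100%, the upper classes resembled each other. The gain closed 32.8% of that distance at 20 to 39% in naive p53-null cells, 37.7% at 40 to 59%, 37.6% at 60 to 79% and 32.1% at 80 to 100%, but 15.9% at 5 to 19% and 0.572% at 0.

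**Figure D1:**
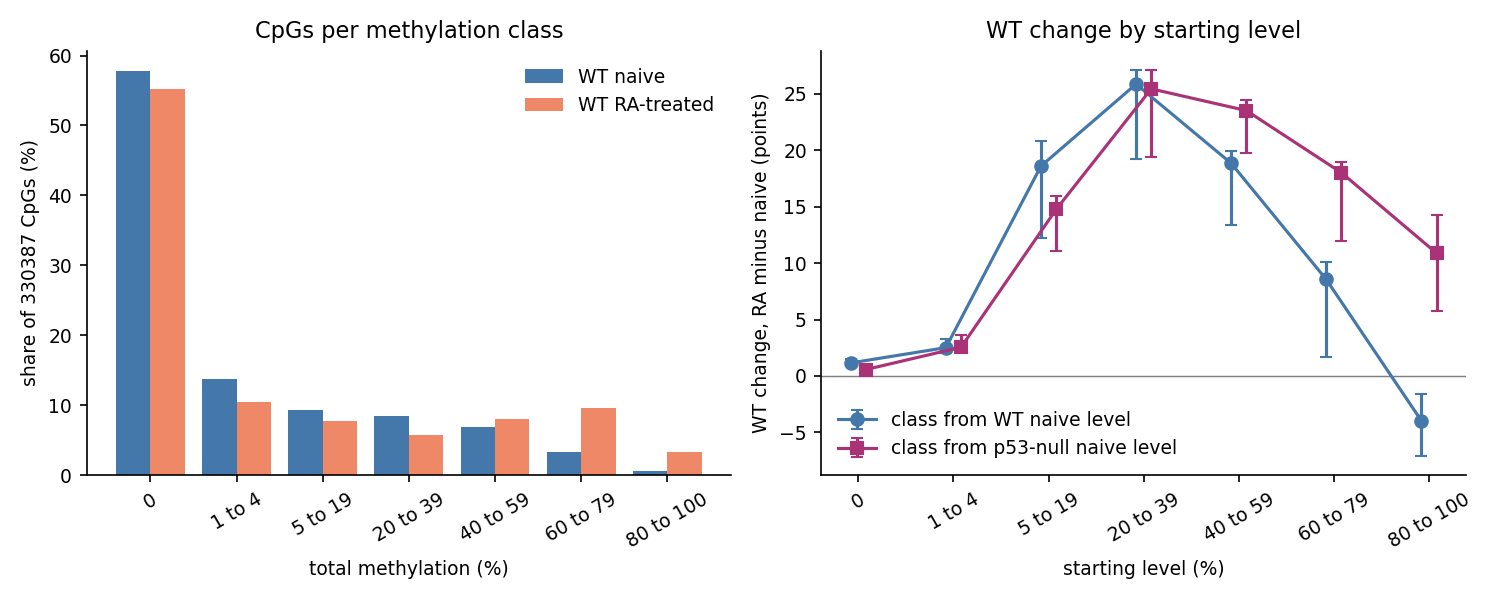
Left, the share of the 330387 CpGs (%) in each class of total methylation (%), in naive and RA-treated WT cells. Right, the mean WT change (RA minus naive, percentage points) by starting level, with classes from naive WT (circles) or naive p53-null cells (squares), and bars from the lowest to the highest of 20 chromosomes. The change is largest at 20 to 39% under both, 25.9 and 25.4 points, and only the circles go below 0, at 80 to 100%.

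A CpG that was unmethylated in both naive genotypes seldom gained. Of the 160516 CpGs listed at 0 in naive WT and naive p53-null cells, the mean after RA was 0.805%, and 350 of them, or 0.218%, had a large gain, against 11.7% of all CpGs. These rare gains lay mostly in tiles with few measured CpGs. They made up 2.53% of the 5768 such CpGs that were alone in their tile and 0.0145% of the 69034 in tiles with 9 or more measured CpGs.

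Local CpG density went with both the starting level and the gain. It was counted from measured CpGs, and CpGs of the sequence that the assay did not measure were not counted. CpGs alone in their tile were 19.2% of all CpGs and held 51.1% of the net gain. CpGs in tiles with 9 or more measured CpGs, called CpG-dense tiles here, were 27.4% of all CpGs and held 0.451% of it. Density followed starting level closely, so the classes were compared within a starting level, taken from naive p53-null cells. Among CpGs that already had intermediate methylation, the gain differed little by density. At 20 to 39% the WT gain was 25.2 points for lone CpGs, 25.7 points with 2 CpGs per tile, 25.9 with 3 to 4 and 24.6 with 5 to 8. At 40 to 59% the same classes gave 22.8, 24.2, 25.02 and 24.3 points. At 60 to 79% the gain was 17.5 points for lone CpGs and 22.0 points with 5 to 8 CpGs per tile, the latter over 162 CpGs. The naive WT means of these 2 classes were 52.5% and 48.8%.

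At low starting levels the picture differed, with a smaller gain at each step of density. At 5 to 19% it was 18.9 points for lone CpGs, 17.6 with 2, 14.7 with 3 to 4, 7.59 with 5 to 8 and 0.751 points in CpG-dense tiles. At 1 to 4% it went from 8.32 points for lone CpGs to 0.154 points in dense tiles, and at 0 from 3.64 to 0.0791 points. Within the class of 5 to 19%, however, the naive WT mean also differed by density, from 9.59% for lone CpGs to 0.951% in dense tiles, so starting level was not held fully equal there. CpG-dense tiles with intermediate methylation were too few to extend the comparison: only 23 of their CpGs were at 20 to 39%, with a WT change of 11.1 points from a naive WT mean of 9.83%.

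**Figure D2:**
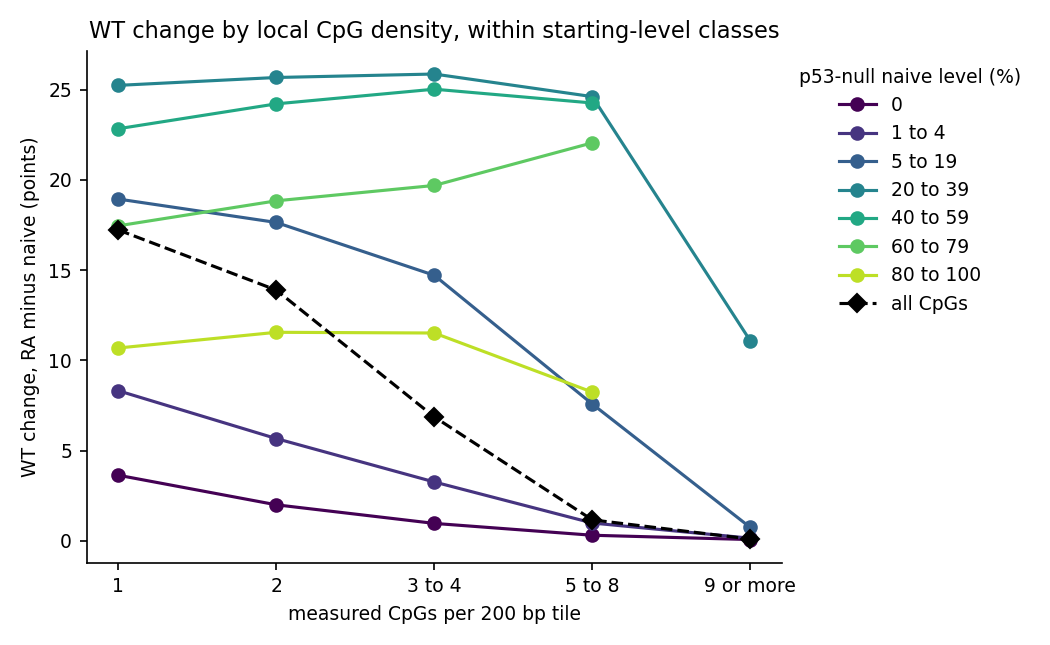
Mean WT change (RA minus naive, percentage points) against the number of measured CpGs in the 200 bp tile, 1 line per starting-level class from naive p53-null cells. The dashed line is all CpGs, and classes with fewer than 20 CpGs are not drawn. The lines for 20 to 39% and 40 to 59% stay between 22.8 and 25.9 points up to 8 CpGs per tile, while the line for 5 to 19% goes from 18.9 to 0.751 points.

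The gain was smallest in and beside CpG-dense tiles and became larger over several kilobases. Inside the dense tiles total methylation went from 0.389% to 0.496%, a change of 0.107 points. It changed by 0.215 points at 1 to 199 bp from the nearest dense tile, by 0.547 points at 200 to 499 bp and by 1.56 points at 500 to 999 bp. Further out the change was 4.98 points at 1000 to 1999 bp, 9.59 points at 2000 to 4999 bp and 11.8 points at 5000 to 9999 bp. Beyond that it was level, between 11.2 and 11.7 points out to 100000 bp and more, although the naive mean went on from 14.5% at 5000 to 9999 bp to 20.03% beyond 100000 bp.

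Within starting-level classes the gain was smaller near dense tiles at low levels, and not at high ones. Among CpGs at 20 to 39% in naive p53-null cells, the WT gain was 16.4 points at 500 to 999 bp from a dense tile over 175 CpGs and 20.2 points at 1000 to 1999 bp over 299 CpGs. It was 24.9 points at 2000 to 4999 bp and 26.7 points at 10000 to 49999 bp. The naive WT mean of these CpGs was 16.5% at 500 to 999 bp and 22.1% at 10000 to 49999 bp. At 40 to 59% no such order was seen, with 23.2 points at 500 to 999 bp over 66 CpGs, 22.1 points at 1000 to 1999 bp, 25.6 points at 10000 to 49999 bp and 21.8 points beyond 100000 bp over 11909 CpGs. At 60 to 79% the gain was larger near dense tiles than far from them. It was 21.4 points at 500 to 999 bp over 28 CpGs against 16.1 points beyond 100000 bp over 10926 CpGs. The former CpGs also started lower, with a naive WT mean of 43.4% against 52.5%. At 80 to 100% the gain was 19.3 points at 1000 to 1999 bp over 23 CpGs and 8.87 points beyond 100000 bp. There the naive WT means were 59.04% and 66.8%. Starting level was thus not held equal in these classes, and a part of distance itself was not tested. At 5 to 19% the gain went from 0.950 points at 1 to 199 bp through 6.17 points at 500 to 999 bp to 17.7 points at 10000 to 49999 bp. The naive WT mean of these CpGs was 1.13% at 1 to 199 bp and 8.15% at 10000 to 49999 bp.

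**Figure D3:**
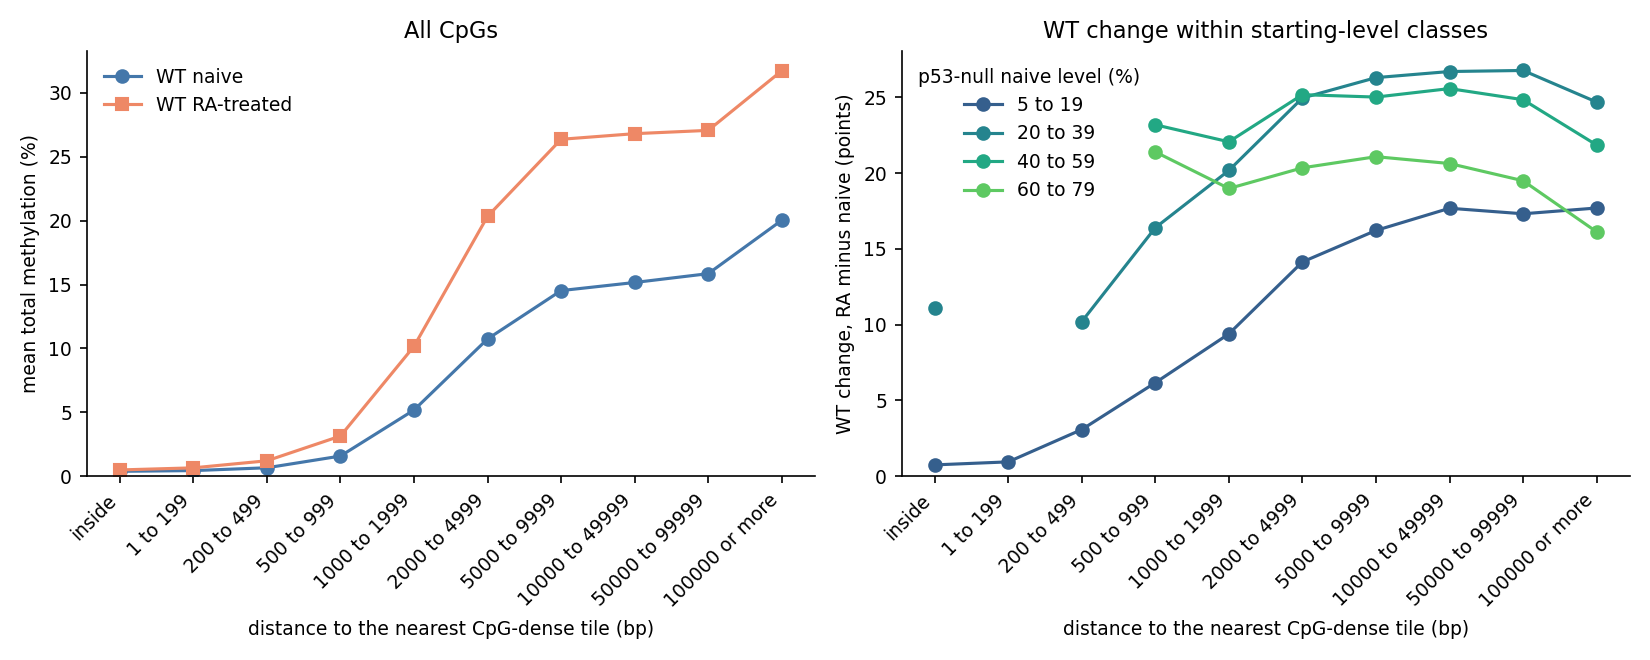
Left, mean total methylation (%) of naive and RA-treated WT cells by distance (bp) to the nearest CpG-dense tile, with inside at the left end. Right, the WT change (RA minus naive, percentage points) by the same distance within 4 starting-level classes from naive p53-null cells, drawn where a class holds at least 20 CpGs. The gap between the states opens from 0.107 points inside to 11.8 points at 5000 to 9999 bp and then stays level.

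Neighbouring CpGs gained together. Where a CpG had a large gain, the next measured CpG had one too in 64.4% of pairs 2 to 10 bp apart, against 0.745% where the first had none. The share was 55.1% at 31 to 100 bp, 41.0% at 201 to 1000 bp and 34.9% at 1001 to 10000 bp. Beyond 10000 bp it was 31.1%, close to the 29.1% where the first CpG had no large gain. Pearson's r of the change between the CpGs of a pair was 0.782 over 94821 pairs at 2 to 10 bp and 0.0303 over 42543 pairs beyond 10000 bp. CpGs a few bases apart share reads as well as starting level, and the part of each was not tested. Among pairs whose first CpG was at 20 to 59% in naive p53-null cells, the share was 68.7% against 32.8% at 2 to 10 bp and 31.0% against 29.0% beyond 10000 bp.

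Within tiles of intermediate level, all CpGs were mostly higher after RA. Of 2657 tiles with at least 3 CpGs and a naive p53-null mean of 20 to 60%, every CpG was higher after RA in 87.4%, every one was lower in 7 tiles, and 281 held CpGs of both directions. Single CpGs were seldom lower in this range, 4.37% of those at 20 to 39% and 5.75% of those at 40 to 59% in naive p53-null cells. A tile of few CpGs would thus often be higher throughout without any sharing, and an excess over that was not tested. The size varied: the median range between the smallest and the largest change in a tile was 18 points.

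Tiles in which every CpG gained strongly were few. Most of the 20673 tiles with at least 5 measured CpGs had little methylation, with a naive mean of 0.962%. Of these tiles 191 had a mean gain of at least 25 points, and 44 had a large gain at every CpG. Of the 44, the tile with the largest mean gain was on chromosome 15 (100622001 to 100622200). Its 5 CpGs stood at 9, 16, 12, 22 and 12% in naive cells. In RA-treated cells they were at 62, 68, 79, 82 and 69%, a mean gain of 57.8 points. The highest naive CpG there was at 22% and the lowest RA value at 62%, a separation favoured by choosing the tile on its gain. On chromosome 9 (30862601 to 30862800) the mean of 5 CpGs went from 22.2% to 75.6%. A tile of 8 CpGs elsewhere on that chromosome (96064401 to 96064600) lay between 3 and 9% in naive cells and between 35 and 70% after RA. Its mean gain was 48 points, and in p53-null cells, measured in other libraries, it changed by 14.5 points. On chromosome 15 (88543001 to 88543200) 6 CpGs at 0 to 9% went to between 38 and 64%, a gain of 47.2 points. The p53-null cells gained 42.3 points in that tile. The other four of the 8 tiles with the largest mean gain, on chromosomes 8, 18 and 19, gained 42.2 to 43.6 points.

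CpG-dense tiles as a class hardly changed, and the exceptions were few. Of 7623 such tiles, 11 gained at least 10 points on average and 1 lost as much. The largest gain was on chromosome 17 (88039801 to 88040000), where 9 CpGs stood at 3 to 14% in naive cells and at 23 to 45% after RA, a mean change from 6.89% to 38.6%. The p53-null cells had nearly the same values there, 7.89% and 34.9%. They did not in the next tile, on chromosome 8 (107117801 to 107118000), where WT cells went from 21% to 49% and p53-null cells from 45.3% to 51.8%, a change of 6.44 points. On chromosome 1 (75425601 to 75425800) 10 CpGs had a mean of 11.8% in naive and 34.9% in RA-treated cells. On chromosome 13 (29108001 to 29108200) 9 CpGs went from 4.56% to 26.9% on average. The gain in that tile was graded along its length, from 45 points at the first CpG to 2 points at the last. On chromosome 11 (3093401 to 3093600) all 13 CpGs were higher, by 2 to 38 points. At the CpG level, 2 of the 3565 CpGs that gained at least 50 points lay in dense tiles and 53.3% were alone in their tile. A gain of at least 50 points needs a start of at most 50%, so starting levels above that could not occur among them. In naive WT cells 49.0% of them were at 5 to 19% and 36.9% at 20 to 39%.

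Losses were rare. Of the 218 CpGs that lost at least 25 points, 66.1% were alone in their tile, and 39.4% and 30.3% started at 60 to 79% and at 80 to 100%. A loss of that size needs a start of at least 25%, and methylated CpGs were mostly alone in any case. By naive p53-null level, 13729 of 20189 CpGs at 60 to 79% and 5233 of 6987 at 80 to 100% were alone in their tile. The mean of the 218 CpGs went from 67.3% to 36.9%. At these CpGs p53-null cells changed by -13.2 points, and 30.7% of them lost at least 25 points there too, against 0.864% of all CpGs. All CpGs at 80 to 100% in naive p53-null cells changed by -13.3 points in those cells, a class formed from a value that enters that change. Among tiles with at least 3 CpGs the largest mean loss was on chromosome 2 (118844601 to 118844800), from 45.7% to 13.7% over 3 CpGs. In the tile on chromosome 8 (123016401 to 123016600) the mean of 3 CpGs went from 61.3% to 33.7%, and in p53-null cells from 71% to 32%. On chromosome 4 (47083001 to 47083200) 3 CpGs went from 71.7% to 43%, and in p53-null cells from 95% to 59.7%. On chromosome 6 (52111001 to 52111200) the values were 28.3% and 9.67% in WT and 34% and 9.33% in p53-null cells.

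The tile of loss with the most CpGs was on the X chromosome (93152201 to 93152400). Of its 10 CpGs, 9 stood between 33 and 38% in naive WT cells and the remaining one at 0. After RA 9 were at 0 and 1 at 7%, so the tile mean went from 30.8% to 0.7%. In p53-null cells the mean was 0.5% before RA and 0 after. The partial level was therefore seen in naive WT cells alone among these 4 groups.

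Tiles with high naive methylation mostly gained further. Of 195 tiles with at least 3 CpGs and a naive mean of at least 60%, 155 were higher and 38 lower after RA, with a mean change of 7.69 points. The 6 with the largest loss changed by -28.7 to -13.3 points, and all 6 were lower in p53-null cells as well, by -39 to -11.7 points. Those on chromosomes 4, 8 and 14 are also among the tiles of largest loss. The naive p53-null means of the 6 tiles were 71 to 95%. In p53-null cells all CpGs at 60 to 79% in their naive state changed by -2.97 points on average. Those at 80 to 100% changed by -13.3 points, and the naive p53-null value enters both changes. With these classes taken from naive WT cells, the p53-null changes were -1.78 and -5.82 points. In the middle range, of 216 tiles with at least 5 CpGs and a naive mean of 20 to 80%, 209 were higher and 7 lower. Only 10 of them changed by less than 5 points.

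**Figure D4:**
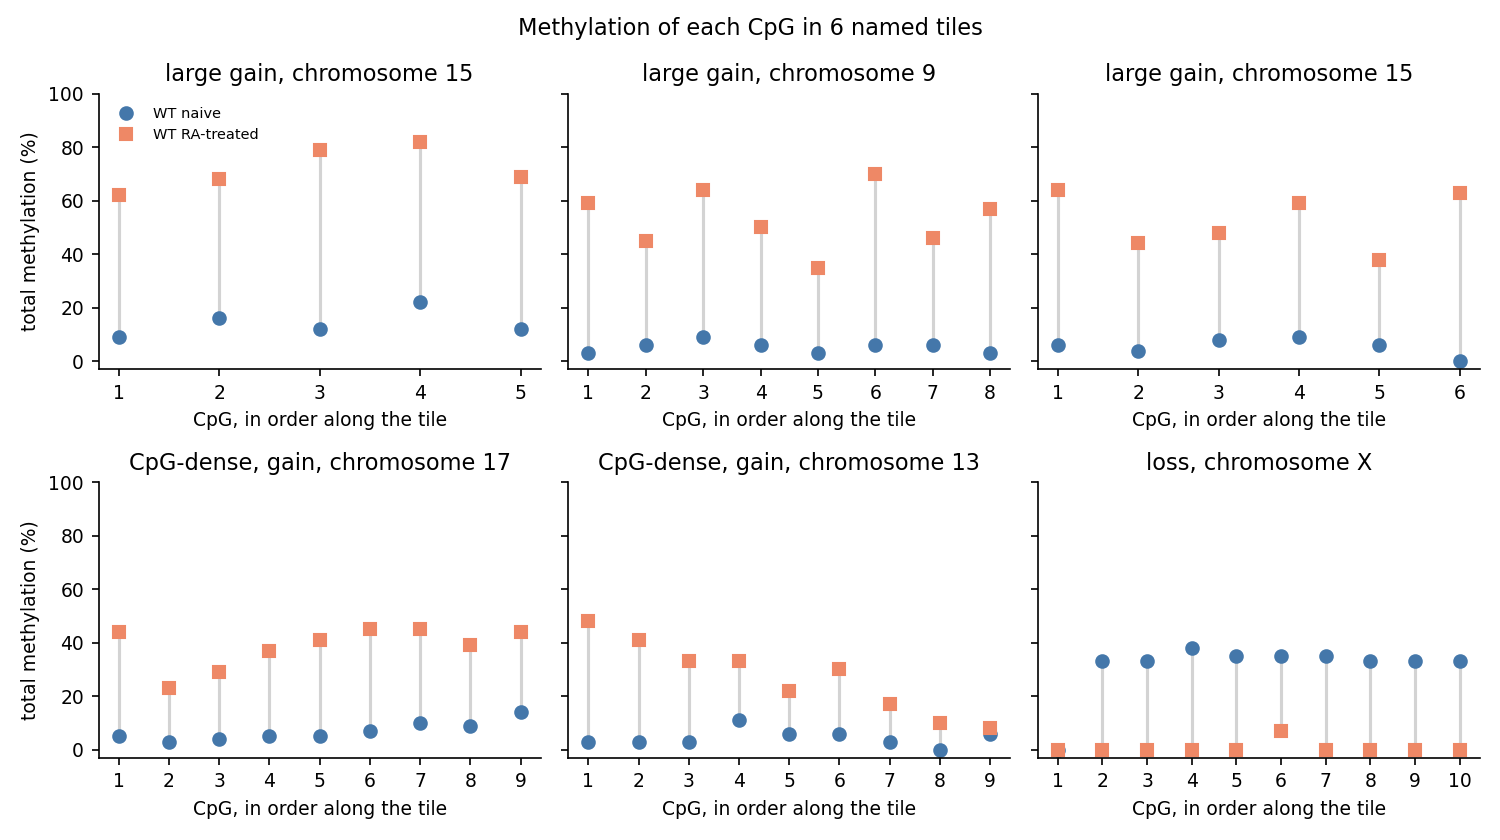
Total methylation (%) of each measured CpG in 6 named tiles, in order along the tile, for naive (circles) and RA-treated (squares) WT cells, with a grey line joining the values of a CpG. In the upper row every CpG gained at least 25 points. The lower row shows CpG-dense tiles of gain on chromosomes 17 and 13 and the tile of loss on the X chromosome, where 9 CpGs at 33 to 38% went to 0 or 7%.

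Along the genome the gain was broad. Of 1623 windows of 1000000 bp with at least 50 CpGs, 1622 had a higher mean after RA, 1 was equal and 0 were lower. The window mean had a 10th percentile of 3.09, a median of 6.13 and a 90th percentile of 10.5 points. Windows with more lone CpGs and higher naive methylation gained more, with Pearson's r over the 1623 windows of 0.770 and 0.786. These are descriptions, since windows share libraries, and the naive level enters the change.

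The highest window, on chromosome 2 (169000001 to 170000000), went from 26.8% to 52.7% over 119 CpGs, a gain of 25.9 points. It held no CpG-dense tile, and its 56 CpGs at 20 to 59% in naive p53-null cells gained 33.7 points. The next were on chromosomes 8 (117000001 to 118000000, 22.1 points), 13 (57000001 to 58000000, 21.8 points), 6 (144000001 to 145000000, 19.9 points) and 10 (8000001 to 9000000, 19.4 points). The 5 lowest windows were on chromosomes 12, 7 and X. They changed by 0 to 0.631 points, and 55.9 to 75% of their CpGs were listed at 0 in naive cells, against 57.8% of all CpGs. The windows were picked by their low mean, so a small change of their methylated CpGs follows in part from that choice. On chromosome 12 (19000001 to 20000000) the 27 CpGs at 20% or more in naive cells changed by 0.519 points, and on chromosome 7 (7000001 to 8000000) 11 such CpGs changed by -2.18 points. CpGs at 20 to 59% in naive p53-null cells gained 7.8 points in the former window and 1.6 points in the latter, over 5 CpGs each. In the X window (155000001 to 156000000) 4 CpGs of that range gained 20.75 points, while 8 CpGs at 20% or more in naive WT cells changed by -3.1 points. Position along the chromosome showed no comparable trend. When each autosome was cut into 10 equal lengths, CpGs at 20 to 59% in naive p53-null cells gained 23.9 to 24.99 points.

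The X chromosome gained less than any autosome, also among CpGs of the same starting range. At CpGs of 20 to 59% in naive p53-null cells, the WT gain was 19.6 points over 619 CpGs on X and 23.7 to 25.6 points on the 19 autosomes. Their naive WT mean was 30.8% on X and 29.8 to 31.5% on autosomes, and the level after RA was 50.4% on X and 54.0 to 56.5% on autosomes. With the range taken from naive WT cells the gain was 16.4 points over 718 CpGs on X and 22.2 to 23.5 points on autosomes. Large gains made up 37.6% of the X CpGs and 48.1 to 52.2% of the autosomal ones in the p53-null range. X had a slightly larger share of lone CpGs, 21.9% against 17.2 to 21.0%, and among lone CpGs alone it gained 20.2 points over 373 CpGs against 22.9 to 24.9 points. CpGs under 5% gained 0.879 points on X, within the autosomal range of 0.737 to 1.07. The p53-null cells had their smallest change on X too, 1.63 points against 4.71 to 8.45 points at CpGs of 20 to 59% in naive WT cells. How many X chromosomes the lines carry is not in the labels, and its part in the result was not tested.

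CpG-dense tiles on X also differed from those on the autosomes in the naive state. The mean there was 0.943% in naive WT cells over 1015 CpGs, against 0.306 to 0.412% on autosomes, and 0.651% after RA against 0.396 to 0.620%. Without the 10 CpGs of the tile of loss described above, the X means were 0.646% and 0.651%. Of the 21 X CpGs that lost at least 25 points, 12 lay outside that tile. The Y chromosome had too few measured CpGs to describe.

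**Figure D5:**
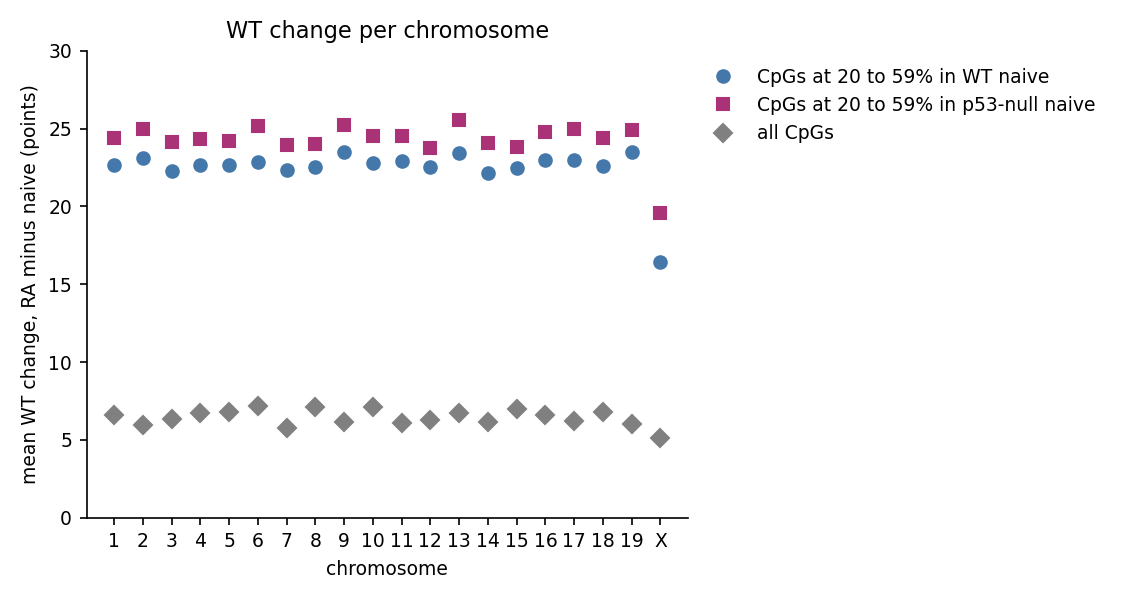
Mean WT change (RA minus naive, percentage points) per chromosome, over all CpGs (diamonds) and over CpGs at 20 to 59% in naive WT (circles) or naive p53-null cells (squares). X lies lowest in each series, at 16.4 and 19.6 points for the latter ranges, while the autosomes span 22.2 to 23.5 and 23.7 to 25.6 points.

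The CpGs that gained in WT cells also gained in p53-null cells, by less. The p53-null groups of 3 naive and 4 RA-treated libraries share no library with the WT groups. At the 35045 CpGs with a WT gain of 25 to 49 points, whose WT mean gain was 33.9 points, p53-null cells gained 13.2 points. At the 3565 CpGs with a WT gain of at least 50 points, 56.1 points on average, they gained 22.9 points. Large gains in p53-null cells were found at 23.2% and 49.6% of these CpGs, against 4.29% of all CpGs. At CpGs with a WT change between -9 and 9 points p53-null cells changed by 0.229 points. The CpGs were selected on the WT change, so the WT value of each class is high by that choice and the genotypes' gains in it are not a comparison of like with like. The naive p53-null level at the CpGs of largest WT gain was 35.0%, above the naive WT mean of 17.3%.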

How the data were processed

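Libraries were made by RRBS from MspI-digested DNA, and those of WT naive and WT RA-treated mESC, 5 each, were compared. Trim Galore, BSMAP, methylKit and build mm9 are named per the submitters' processing notes. What each tool did, its version, the coverage filter and the pooling of libraries were not given in the sources used here, so their effect on the values is unknown. The authors deposited total methylation as whole percent values, 1 column per group, and each column was taken as the pooled group. Another 4 value columns, whose suffix is not defined, and the tile table, whose headings name no cell state, were not used. Depth is unknown, so no interval or floor is given.

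Each CpG counted once. Tiles of 200 bp were laid from position 1, a CpG-dense tile had at least 9 measured CpGs, and large changes were at least 25 points. The table does not say whether its positions count from 0 or 1. They are printed as deposited, and counting from 0 was tried as an alternative. Named sites were the 8 tiles with at least 5 CpGs, all gaining at least 25 points, and the largest mean gain, the 6 tiles with at least 3 CpGs and the largest loss, the 6 CpG-dense tiles of largest gain and the 6 tiles with at least 3 CpGs, a naive mean of at least 60% and the smallest gain or a loss, 1 per 10000 bp. The 5 highest and 5 lowest windows were also named. The gene reference at hand is on another build, so no gene or sequence is given. The members, classes and tests were chosen with earlier results of these data known. Alternatives were other CpG sets, call sizes, level columns, density windows, dense-tile limits and window sizes. Scripts ran in Python 3.11.15 with numpy 2.4.6, pandas 2.3.3 and matplotlib 3.10.9, and were tested on simulated data.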

Additional observations from a re-analysis of the deposited data

How the results depend on the processing

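Of 50 alternatives, 25 left their value within 1 SD over chromosomes (counts within 1.5 times), 24 moved it further and 1 reversed it. The reversed value was the change at 80 to 100%, -3.96 points by naive WT level and 10.9 points by naive p53-null level. The same switch gave 0.569 points at 0, 14.8 at 5 to 19%, 23.5 at 40 to 59% and 18.0 at 60 to 79%. The mean change of 6.48 points was 12.5 with each tile counting once, 12.1 over CpGs above 0 in either state and 18.1 over CpGs at neither 0 nor 100. CpGs of large loss numbered 509 at 20 points and 97 at 30 points. With density counted per 1000 bp, lone CpGs gained 18.6 points and dense ones 0.407. With dense tiles of at least 6 CpGs the gain was 0.366 points inside, 0.583 at 1 to 199 bp, 3.23 at 200 to 1999 bp, 14.4 at 2000 to 9999 bp and 16.0 beyond. With at least 12 it was 1.01 at 200 to 1999 bp, 8.57 at 2000 to 9999 bp and 8.81 beyond. For pairs with gains of at least 10 points the shares were 78.3% at 2 to 10 bp and 60.4% beyond 10000 bp. The shares where the first CpG had no such gain are not given at that size. X minus autosomes, -4.90 points by naive p53-null level, was -6.35 by naive WT level, -3.73 for lone CpGs and -4.21 with each tile counting once, alternatives chosen after seeing the data. Counting positions from 0, also chosen then, moved no density or distance value beyond that spread. The cause of these shifts was not tested. No paired analysis was possible because each group has 1 pooled column and no value per library, so leaving out a replicate could not be done either. Unknown depth limits all values, above all single CpGs and short tiles.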
